A study of Mus musculus with 6 samples.

Results

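The genes described here are 51 skeletal and extraocular muscle genes, chosen by what they encode, but with earlier results of these data known. They comprise myosin heavy and light chains, thin filament and Z-disc proteins, calcium handling proteins, enzymes of muscle energy supply, myogenic transcription factors and subunits of the muscle acetylcholine receptor. Probe sets that the platform annotation gives exactly 1 symbol were used, with the brightest kept where a gene had several, and all 51 genes were found among 22180 measured genes. Expression was measured on Affymetrix whole-transcript arrays in tissue that held the retinal pigment epithelium (RPE) together with choroid and sclera. The 3 samples of 5XFAD mice came from 12-month-old heterozygotes of a line whose transgenes, with familial Alzheimer's disease mutations, are driven by the neuronal Thy1 promoter. The 3 samples of wild-type mice came from non-transgenic littermates of the same age, with no treatment in either group. Each sample was hybridised to 1 array, so precision is limited by having 3 arrays a group. Whether a sample was 1 animal or several pooled ones is not stated, and the p-values therefore speak only of sample-to-sample spread, part of which may be technical.

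Skeletal muscle contracts by sliding myosin thick filaments along actin thin filaments, under the control of calcium that troponin senses. Fibre types are told apart by their myosin heavy chain: Myh7 in slow fibres, Myh2, Myh1 and Myh4 in the fast types IIA, IIX and IIB, Myh3 and Myh8 in embryonic and perinatal fibres. The extraocular muscles, which move the eye and insert on the sclera, are unusual in keeping developmental myosins in the adult and in having a heavy chain of their own, Myh13. Skeletal muscle is no part of the RPE, choroid or sclera. The muscle genes had a median percentile of 47.5 of all genes by mean signal, against 98.9 for 22 RPE marker genes that are defining for the labelled tissue.

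The dissections carried fast skeletal muscle transcripts in amounts that differed several-fold from array to array. The signal of Acta1, the actin of skeletal muscle thin filaments, was 9.48, 8.54 and 7.75 in 5XFAD replicates 1 to 3 and 6.99, 6.96 and 8.43 in wild type replicates 1 to 3 (log2 intensity, as for all signals below). The highest array, 5XFAD replicate 1, exceeded the lowest, wild type replicate 2, by 5.74-fold, and wild type replicate 3 lay among the 5XFAD arrays. Over all 51 muscle genes the range between the highest and the lowest array had a median of 1.02 on the log2 scale, against 0.40 over all genes. It reached 1 or more in 26 muscle genes (51% of them, against 2.97% of all genes) and 2 or more in 12 (23.5%, against 0.311%). The spread stood within each genotype as well. The median range among the 3 arrays of a group was 0.66 in 5XFAD and 0.78 in wild type for the muscle genes, against 0.24 in 5XFAD and 0.26 in wild type for all genes. In whole tissue, more muscle fibres and more RNA per fibre cannot be told apart.

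**Figure D1:**
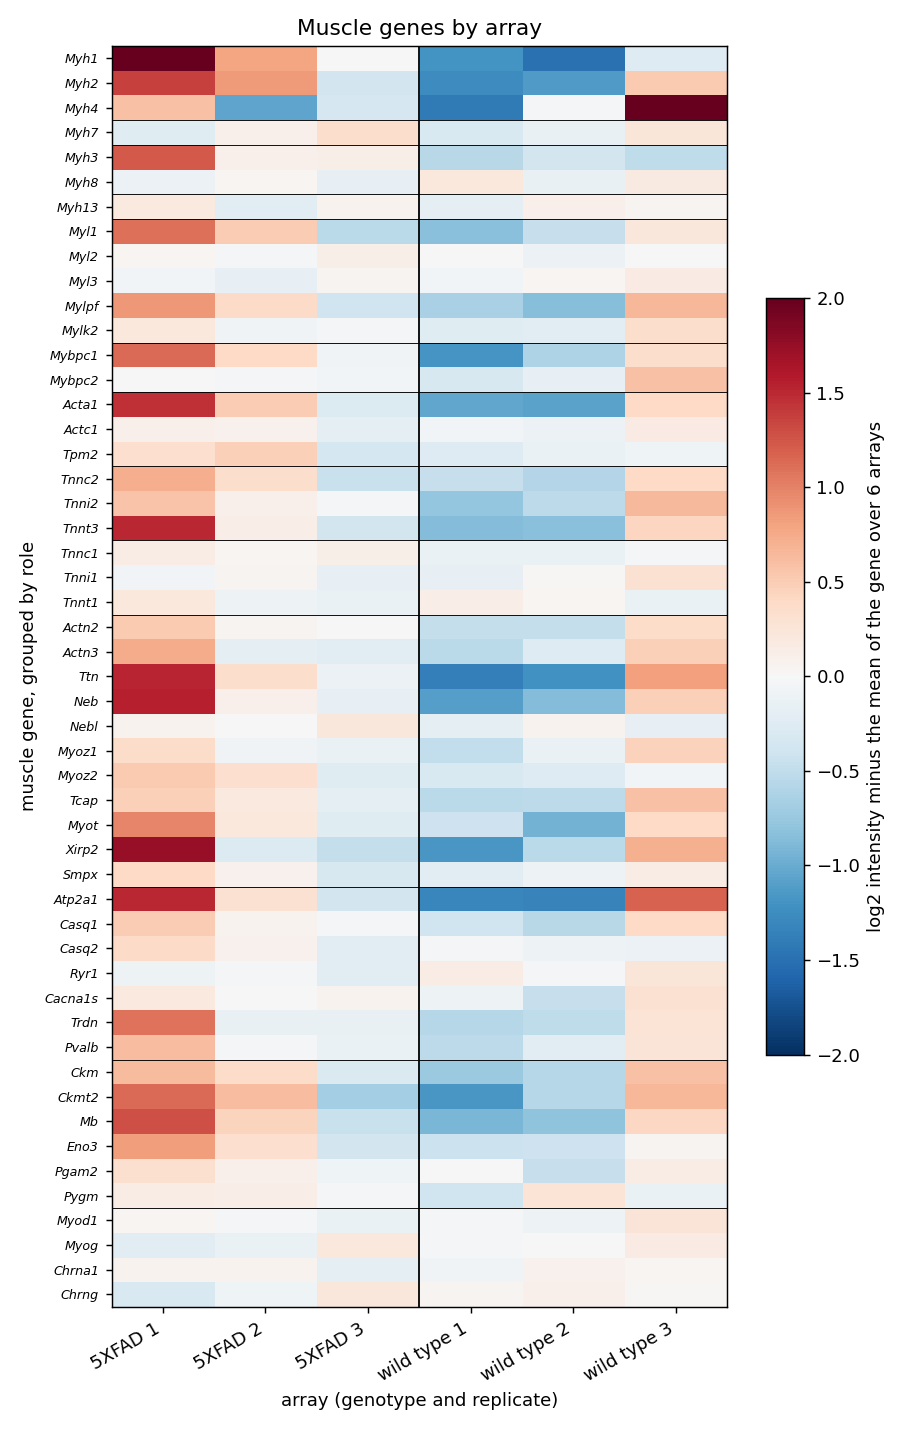
Signal of the 51 muscle genes (rows, ordered by role) in the 6 arrays (columns), as log2 intensity minus the mean of the gene over the 6 arrays; red is above and blue below that mean, and the colours saturate at 2. Most rows are reddest in 5XFAD replicate 1 or wild type replicate 3 and bluest in wild type replicates 1 and 2, while rows such as Myl2, Tnnc1 and Chrna1 hardly vary.

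One set of highest arrays recurred across most of the genes. In 31 of the 51 muscle genes (60.8%) the 3 highest arrays were 5XFAD replicates 1 and 2 and wild type replicate 3, an order seen in 4.08% of all genes. Wild type replicates 1 and 2 were the lowest pair in 28 (54.9%, against 5.77% of all genes). Myh4, Myh3, Myh7, Myh8 and Myh13 were among the genes with neither order. The single highest array was 5XFAD replicate 1 in 30 genes (all genes 14.3%) and wild type replicate 3 in 12 (all genes 21%), and the lowest was wild type replicate 1 in 27 (all genes 13.3%) and wild type replicate 2 in 11 (all genes 17.3%). These orders were picked out after the values were seen. Averaged over the 51 genes, the signal was 6.63, 6.15 and 5.88 in 5XFAD replicates 1 to 3, against 5.54, 5.64 and 6.34 in wild type replicates 1 to 3. The groups thus overlapped, with wild type replicate 3 above 5XFAD replicates 2 and 3.

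Between the genotypes, no muscle gene passed the adjusted threshold. Of 22180 genes 5 (0.0225%) had a Benjamini-Hochberg adjusted p under 0.05 in limma and 0 of these were muscle genes, whose lowest adjusted p was 0.44, for Myh1. The difference between 5XFAD and wild type was positive in 40 of the 51 (78.4%, against 47.2% of all genes), with a median of 0.31 on the log2 scale, against -0.01 over all genes. At an unadjusted p under 0.05 limma gave 5 muscle genes as higher in 5XFAD (9.8%, against 2.89% of all genes) and 0 as lower (all genes 3.39%). These 5 were Myh1, Myh2, Myh3, Mybpc1 and Acta1. The groups did not overlap in 3 genes, Myh1, Myh3 and Tnnc1, all higher in 5XFAD (5.88%, against 4.72% of all genes), and in 0 genes lower in 5XFAD (all genes 6.62%). The share of muscle genes that stood apart as higher was thus near that of all genes.

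Single arrays decided how many muscle genes passed at an unadjusted p under 0.05 in limma. Without wild type replicate 3 it was 23 of 51 (45.1%, against 5.3% of all genes), and without 5XFAD replicate 3 it was 17 (33.3%, against 6.45%). Without 5XFAD replicate 1, 5XFAD replicate 2 or wild type replicate 1 it was 2 (3.92%, against 5.18%, 5.17% and 5.76% of all genes in that order), and without wild type replicate 2 it was 6 (11.8%, against 8.5%). With all arrays, a trended and robust prior gave 2 (3.92%, against 6.27%) and array weights gave 14 (27.5%, against 7.58%). The median difference of the 51 genes was 0.161 without 5XFAD replicate 1, 0.185 without wild type replicate 1 and 0.478 without wild type replicate 3. Whichever array was left out, 0 muscle genes had an adjusted p under 0.05.

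Myosin heavy chains gave both the widest and some of the narrowest ranges. Of the 7 measured, 6 lie side by side on chromosome 11 in the order Myh3, Myh2, Myh1, Myh4, Myh8 and Myh13, in the RefSeq annotation of GRCm38.p6. The windows below, from 250 bases before to 50 bases after the RefSeq start, are shown for the heavy chains whose array patterns parted, Myh1, Myh4 and Myh3, and for Acta1, which followed the common pattern. Capitals mark matches to the MEF2 motif, bound by a family of muscle transcription factors, to the CArG box, bound by serum response factor, and to CAGCTG, an E-box form bound by myogenic factors.
Myh1, chr11:67199852-67200151, + strand: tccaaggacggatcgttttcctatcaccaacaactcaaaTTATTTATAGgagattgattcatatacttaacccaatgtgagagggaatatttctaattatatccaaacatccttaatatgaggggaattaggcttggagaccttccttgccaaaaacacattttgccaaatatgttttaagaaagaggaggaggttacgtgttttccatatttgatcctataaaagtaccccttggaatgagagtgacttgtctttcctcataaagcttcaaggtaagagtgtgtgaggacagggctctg
Myh4, chr11:67237562-67237861, + strand: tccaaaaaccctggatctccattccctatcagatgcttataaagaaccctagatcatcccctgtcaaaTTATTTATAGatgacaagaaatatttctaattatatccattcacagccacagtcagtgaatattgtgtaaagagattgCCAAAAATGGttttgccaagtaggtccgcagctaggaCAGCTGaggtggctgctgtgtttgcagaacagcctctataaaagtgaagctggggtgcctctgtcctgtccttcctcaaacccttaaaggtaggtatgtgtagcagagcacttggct
Myh3, chr11:67078050-67078349, + strand: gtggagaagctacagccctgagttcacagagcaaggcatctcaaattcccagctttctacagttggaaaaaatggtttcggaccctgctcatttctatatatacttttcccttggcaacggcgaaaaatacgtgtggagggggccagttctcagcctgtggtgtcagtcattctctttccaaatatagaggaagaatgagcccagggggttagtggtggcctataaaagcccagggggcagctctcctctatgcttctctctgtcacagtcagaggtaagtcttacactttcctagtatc
Acta1, chr8:123894726-123895025, - strand: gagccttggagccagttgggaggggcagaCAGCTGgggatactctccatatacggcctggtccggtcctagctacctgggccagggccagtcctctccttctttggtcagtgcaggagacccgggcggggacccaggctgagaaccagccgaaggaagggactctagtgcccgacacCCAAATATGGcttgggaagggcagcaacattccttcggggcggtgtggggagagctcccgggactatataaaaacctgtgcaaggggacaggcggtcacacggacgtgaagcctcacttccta
Each motif was searched on both strands, and no matches overlapped in these windows. In the Myh1 window the MEF2 match is the only one, the Myh4 window holds all 3 motifs, the Acta1 window holds a CArG box and CAGCTG, and the Myh3 window holds no match. RefSeq windows were given for 41 of the 51 genes. A MEF2 match stood in 9 of these (22%, against 3.7% of 27025 genes with a window), a CArG box in 6 (14.6%, against 1.81%) and CAGCTG in 20 (48.8%, against 18.3%). A match to letters is a description and no evidence of binding.

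Myh1, the fast IIX heavy chain, had signals of 8.73, 7.36 and 6.59 in 5XFAD replicates 1 to 3, against 5.38, 5.08 and 6.31 in wild type replicates 1 to 3. The groups did not overlap, though 5XFAD replicate 3 and wild type replicate 3 differed little. The difference was 1.97 ± 0.49 (log2, ± SE, n = 3 per group, as for all differences below), a 3.91-fold level, and did not pass (limma, Benjamini-Hochberg adjusted p = 0.44). With single arrays left out it lay between 1.38 and 2.45. Myh2, the fast IIA chain, had 7.82, 7.31 and 6.09 in 5XFAD and 5.20, 5.33 and 6.98 in wild type. Here wild type replicate 3 stood between 5XFAD replicates 2 and 3, and the difference of 1.24 ± 0.51 did not pass (limma, Benjamini-Hochberg adjusted p = 0.76).

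Myh4, the IIB chain of the fastest fibres, followed a different order. Its signals were 6.28, 4.64 and 5.37 in 5XFAD replicates 1 to 3 and 4.28, 5.67 and 7.97 in wild type replicates 1 to 3. Wild type replicate 3 was the highest array by far, and 5XFAD replicate 2, high for Myh1 and Myh2, was next to lowest. The range of 3.70 was the widest of the 51 genes (13.0-fold), and the difference of -0.55 ± 0.78 did not pass (limma, Benjamini-Hochberg adjusted p = 0.96). Its sign rested on wild type replicate 3, without which the difference was 0.45. Taken within each array, Myh1 minus Myh4 was 2.46, 2.72 and 1.22 in 5XFAD, against 1.1, -0.59 and -1.66 in wild type. Every 5XFAD array was above every wild-type array in this contrast, with 5XFAD replicate 3 and wild type replicate 1 nearly level, and with means of 2.13 ± 0.80 in 5XFAD and -0.38 ± 1.39 in wild type (SD, n = 3 each). For Myh2 minus Myh4 the values were 1.54, 2.67 and 0.73 in 5XFAD and 0.92, -0.35 and -1.0 in wild type, and the groups overlapped. The groups also overlapped in Myh1 minus Myh2, at 0.91, 0.05 and 0.5 in 5XFAD and 0.18, -0.25 and -0.67 in wild type. These pairs were formed after the values were seen and were given no test. They show only that the isoforms differed unequally between arrays, since signals of different probe sets are on no common scale.

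The heavy chains of other fibre types varied far less, apart from Myh3. The embryonic chain Myh3 had 5.81, 4.68 and 4.70 in 5XFAD and 4.02, 4.21 and 4.07 in wild type. All 5XFAD arrays were higher, and wild type replicate 3, rich in fast muscle transcripts, was as low for Myh3 as the other wild-type arrays. The difference was 0.96 ± 0.26, a 1.95-fold level, and did not pass (limma, Benjamini-Hochberg adjusted p = 0.51). Without 5XFAD replicate 1 it came to 0.59. The Myh3 signal was dim, at percentile 23.4 of all genes. Within arrays, Myh3 minus Acta1 was -3.67, -3.86 and -3.05 in 5XFAD and -2.98, -2.75 and -4.36 in wild type, and the groups overlapped. Myh3 minus Myh1 overlapped as well, at -2.93, -2.68 and -1.89 in 5XFAD and -1.37, -0.88 and -2.24 in wild type. These contrasts, too, were formed after the values were seen and were given no test. Myh8, the perinatal chain, had 4.44, 4.60 and 4.40 in 5XFAD and 4.78, 4.42 and 4.75 in wild type. The slow chain Myh7 had 4.41, 4.75 and 4.99 in 5XFAD and 4.34, 4.5 and 4.88 in wild type. In both the groups overlapped (differences of -0.17 ± 0.12 and 0.15 ± 0.18). Myh13, the chain that marks extraocular muscle, had 4.25, 3.83 and 4.12 in 5XFAD and 3.85, 4.15 and 4.11 in wild type. It lay at percentile 15.3 of all genes with a range of 0.42, so that the array order of the fast genes was not seen in the defining extraocular gene. The difference was 0.03 ± 0.14, and limma's adjusted p-values for Myh7, Myh8 and Myh13 were 0.92 to 0.98 (Benjamini-Hochberg). Heavy chains share long stretches of sequence, and what part of a signal came from a neighbouring isoform was not tested.

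**Figure D2:**
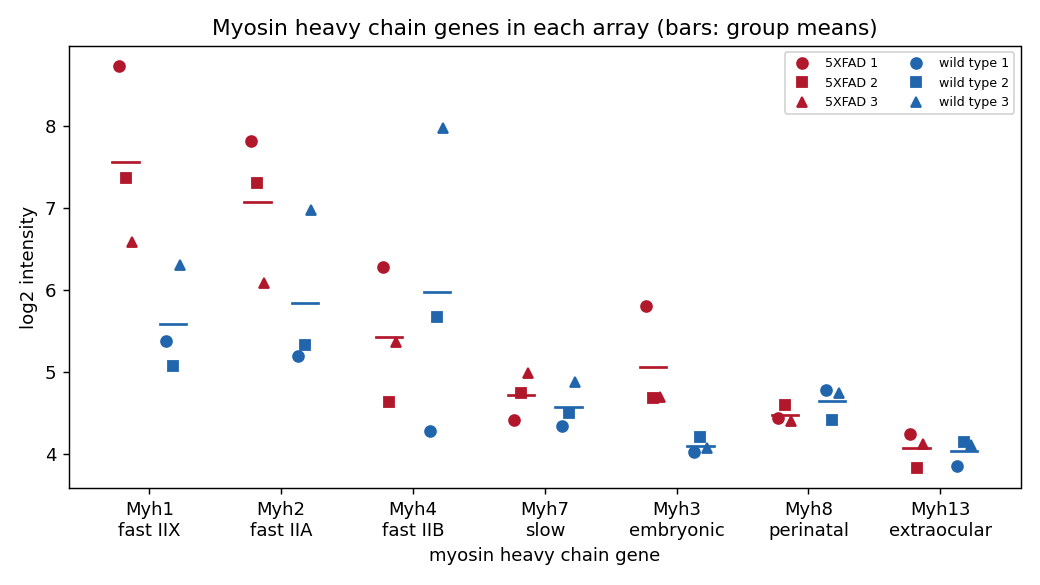
Log2 intensity (vertical axis) of the 7 myosin heavy chain genes in each array, with 5XFAD arrays in red on the left and wild-type arrays in blue on the right of each gene; symbols give the replicate and bars the group means. Myh1 and Myh3 are higher in every 5XFAD array, Myh4 is highest in wild type replicate 3 at 7.97, and Myh7, Myh8 and Myh13 stay between 3.83 and 4.99.

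Among the light chains, the fast genes Myl1 and Mylpf varied widely, and Myl2 and Myl3, of slow and heart muscle, hardly at all. The binding proteins, which stabilise thick filaments, ran the other way, with a range of 2.31 for the slow-type gene Mybpc1 and 0.90 for the fast gene Mybpc2. Mybpc1 had 6.92, 6.19 and 5.73 in 5XFAD and 4.61, 5.18 and 6.14 in wild type. Its groups overlapped through wild type replicate 3, which exceeded 5XFAD replicate 3, and the difference of 0.97 ± 0.38 did not pass (limma, Benjamini-Hochberg adjusted p = 0.74). Myl1 had 8.40, 7.81 and 6.77 in 5XFAD and 6.46, 6.84 and 7.53 in wild type. Its range of 1.94 was the widest of the 5 light chain and kinase genes, against 1.72 for Mylpf, 0.60 for the kinase gene Mylk2, 0.33 for Myl3 and 0.24 for Myl2, the narrowest of the 51. Myl2 stood at 5.61, 5.54 and 5.70 in 5XFAD and at 5.58, 5.46 and 5.58 in wild type. Mybpc2 was highest in wild type replicate 3 at 5.26, with 4.36 to 4.69 in the other arrays. Its next highest arrays were 5XFAD replicates 1 and 2 at 4.69 and 4.64, barely above 5XFAD replicate 3 at 4.62. Mybpc2 was thus not outside the order of the fast genes, and its signal was dim, at percentile 25 of all genes.

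Troponin of the thin filament holds the calcium switch, with subunits C, I and T encoded by separate genes in fast and slow fibres. The fast genes Tnnc2, Tnni2 and Tnnt3 had ranges of 1.31, 1.42 and 2.37, and in all 3 the highest arrays were 5XFAD replicates 1 and 2 and wild type replicate 3. Tnnt3 had 9.13, 7.75 and 7.26 in 5XFAD and 6.75, 6.79 and 8.06 in wild type, a difference of 0.85 ± 0.47. The slow genes Tnnc1, Tnni1 and Tnnt1 had ranges of 0.29, 0.48 and 0.35. Tnnc1, which heart muscle also uses, had 6.95, 6.83 and 6.91 in 5XFAD and 6.67, 6.66 and 6.77 in wild type. Its groups stood apart by a small margin, at 0.20 ± 0.10 (limma, Benjamini-Hochberg adjusted p = 0.83). The difference for Acta1, given above, was 1.13 ± 0.47 (0.76), for the heart and developmental actin Actc1 0.00 ± 0.12 (1.00) and for the tropomyosin gene Tpm2 0.31 ± 0.19 (0.91; limma, Benjamini-Hochberg adjusted p).

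The giant and Z-disc genes all had positive differences, 11 of 11, from 0.10 to 1.17. Ttn encodes titin, the molecular spring of the sarcomere, and Neb encodes nebulin, a ruler of the thin filament. Ttn had 8.46, 7.30 and 6.83 in 5XFAD and 5.57, 5.73 and 7.76 in wild type. The difference of 1.17 ± 0.57 lay within an overlap, since wild type replicate 3 exceeded 5XFAD replicates 2 and 3. Xirp2, an actin-binding protein of muscle attachment sites, had 6.74, 4.73 and 4.52 in 5XFAD and 3.84, 4.45 and 5.70 in wild type. Its range of 2.90 was the widest after Myh4 and Myh1, and its difference turned to -0.04 without 5XFAD replicate 1. Neb had 7.71, 6.26 and 6.0 in 5XFAD and 5.05, 5.29 and 6.63 in wild type. Myot, Actn3, Tcap and Actn2, all of the Z-disc, had ranges of 1.92, 1.28, 1.13 and 1.02, and Myoz1, Myoz2 and Smpx ones of 0.95, 0.82 and 0.72. Nebl, a nebulin relative best known from heart, was nearly level, between 6.36 and 6.77.

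Calcium handling and energy genes had 5XFAD replicates 1 and 2 and wild type replicate 3 as the highest arrays in 4 of 7 and 5 of 6 cases. Atp2a1, the calcium pump of the fast sarcoplasmic reticulum, had 8.64, 7.45 and 6.78 in 5XFAD and 5.84, 5.81 and 8.32 in wild type. Wild type replicate 3 was 2.49 above the mean of the other wild-type arrays, and the difference between genotypes was 0.96 ± 0.66 (limma, Benjamini-Hochberg adjusted p = 0.92). The oxygen store Mb, myoglobin, had 8.38, 7.54 and 6.65 in 5XFAD and 6.18, 6.28 and 7.50 in wild type. Ckmt2, mitochondrial creatine kinase of muscle, had 6.40, 5.89 and 4.58 in 5XFAD and 4.11, 4.69 and 5.93 in wild type. Its range of 2.29 was the widest of the 6 energy genes, ahead of Mb at 2.20, the cytosolic creatine kinase Ckm at 1.38, the enolase Eno3 at 1.26, the glycolytic mutase Pgam2 at 0.78 and the glycogen phosphorylase Pygm at 0.68. All 6 energy genes had positive differences, from 0.18 to 0.87, and 6 of 7 calcium genes did. Trdn, which anchors the release channel complex, had a range of 1.65, the calcium buffer Pvalb 1.15, the store protein Casq1 1.07, the voltage sensor Cacna1s 0.76 and the slow and heart store protein Casq2 0.61. The exception was the release channel gene Ryr1, at -0.24 ± 0.11 (limma, Benjamini-Hochberg adjusted p = 0.82), whose sign depended on the probe set. The kept Ryr1 probe set had 5.90, 5.98 and 5.77 in 5XFAD and 6.15, 5.98 and 6.24 in wild type. The other, nearly as bright with a mean of 5.99, had 6.64, 6.16 and 5.95 in 5XFAD and 5.56, 5.39 and 6.25 in wild type. This second probe set showed the array order of the fast genes, with a difference of 0.51. Ckm, Myh8 and Xirp2 also had 2 probe sets each, of which the dimmer ones differed by 0.07, -0.05 and -0.10.

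Regulators of muscle formation and receptor subunits varied little. Myod1, a transcription factor that commits cells to muscle, had 5.80, 5.75 and 5.64 in 5XFAD and 5.72, 5.67 and 6.02 in wild type. Myog, which drives fusion into fibres, had 5.92, 6.0 and 6.34 in 5XFAD and 6.10, 6.14 and 6.30 in wild type. The groups overlapped in both. Chrna1, a subunit of every muscle acetylcholine receptor, had 5.02, 5.03 and 4.76 in 5XFAD and 4.89, 5.05 and 4.99 in wild type. Chrng, the subunit of the fetal receptor that reappears after denervation, had 5.16, 5.39 and 5.69 in 5XFAD and 5.52, 5.57 and 5.49 in wild type. The 4 differences ran from -0.11 to -0.04, and the widest range was 0.53 (lowest limma Benjamini-Hochberg adjusted p = 0.95).

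Set against each other, 15 fast genes, 8 slow genes and 6 developmental genes differed in how far they varied. The median range over the 6 arrays was 1.42 for the fast genes, 0.41 for the slow and 0.40 for the developmental, against 0.40 for all genes. The slow list does not hold Mybpc1, the slow-type binding protein gene, whose range of 2.31 exceeded the highest in that list, 0.82 for Myoz2. The fast mean was 7.16, 6.44 and 6.08 in 5XFAD and 5.56, 5.72 and 6.88 in wild type. All 15 fast genes were higher in wild type replicate 3 than in wild type replicate 1 (all genes 49.9%) and replicate 2 (all genes 48.9%). All 15 were higher in 5XFAD replicate 1 than in 5XFAD replicate 2 (all genes 49.5%). In 5XFAD replicate 3, the lowest 5XFAD array, 15 exceeded wild type replicate 1 (all genes 48.2%) and 13 exceeded wild type replicate 2 (all genes 49.5%). The 15 genes were read from the same arrays and are no independent replicates. The slow mean was 5.61, 5.53 and 5.47 in 5XFAD and 5.38, 5.41 and 5.54 in wild type. It ranked the arrays as the fast mean did, over a much smaller span. By gene, 5XFAD replicates 1 and 2 and wild type replicate 3 were the highest arrays in 1 of the 8 slow genes (all genes 4.08%). The developmental mean stayed between 5.16 and 5.38. The median percentile of level was 56.9 for fast, 40.9 for slow and 35.2 for developmental genes, and the part of dim signal in the narrow ranges was not tested.

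Other genes of muscle were 66 measured of 70 listed, none of them among the 51. Their mean had the same 3 highest arrays as the fast mean, over a smaller span. It was 6.18, 6.05 and 5.96 in 5XFAD and 5.92, 5.91 and 6.09 in wild type. By gene, 5XFAD replicates 1 and 2 and wild type replicate 3 were highest in 16 of 66 (all genes 4.08%). Wild type replicates 1 and 2 were the lowest pair in 16 (all genes 5.77%). A positive difference was seen in 47 of 66, and the median of the 66 was 0.05. In limma 0 of the 66 passed the adjusted threshold, and 3 were higher and 0 lower at an unadjusted p under 0.05 (all genes 2.89% higher and 3.39% lower). The 2 of smallest p were Pdlim3, a Z-disc protein, at 0.56 ± 0.13, and Hspb7, a small heat shock protein of muscle, at 0.70 ± 0.24 (limma, Benjamini-Hochberg adjusted p = 0.39 and 0.65). In neither was wild type replicate 3 among the 3 highest arrays, though for Hspb7 it was nearly level with 5XFAD replicate 3. Cox6a2, the muscle form of a cytochrome oxidase subunit, had the widest range of the list at 1.64. It had 7.43, 7.02 and 6.14 in 5XFAD and 5.79, 5.86 and 7.07 in wild type.

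With the mean of those 66 genes in each array as a covariate, the median difference of the 51 genes was 0.009, against 0.312 without it. The sign turned in 14 of the 51, among them Atp2a1 (-0.01 ± 0.21), Xirp2 (-0.17 ± 0.27) and Tnnc2 (-0.03 ± 0.14). Myh1 was still higher in 5XFAD, at 1.26 ± 0.18, as were Myh3 at 0.72 ± 0.25 and Acta1 at 0.43 ± 0.12, and none of the 3 passed (limma, Benjamini-Hochberg adjusted p = 0.16, 0.70 and 0.59). Myh4 was at -1.45 ± 0.60 (0.76). In this fit 0 of the 51 had an adjusted p under 0.05 (all genes 0.018%), and 7 had an unadjusted p under 0.05 (13.7%, against 6.39% of all genes). Of the 7, 5 were higher in 5XFAD (9.8%, against 3.14% of all genes), the same 5 as without the covariate, and Myh4 and Ryr1 were lower. The fit leaves 3 residual degrees of freedom.

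**Figure D3:**
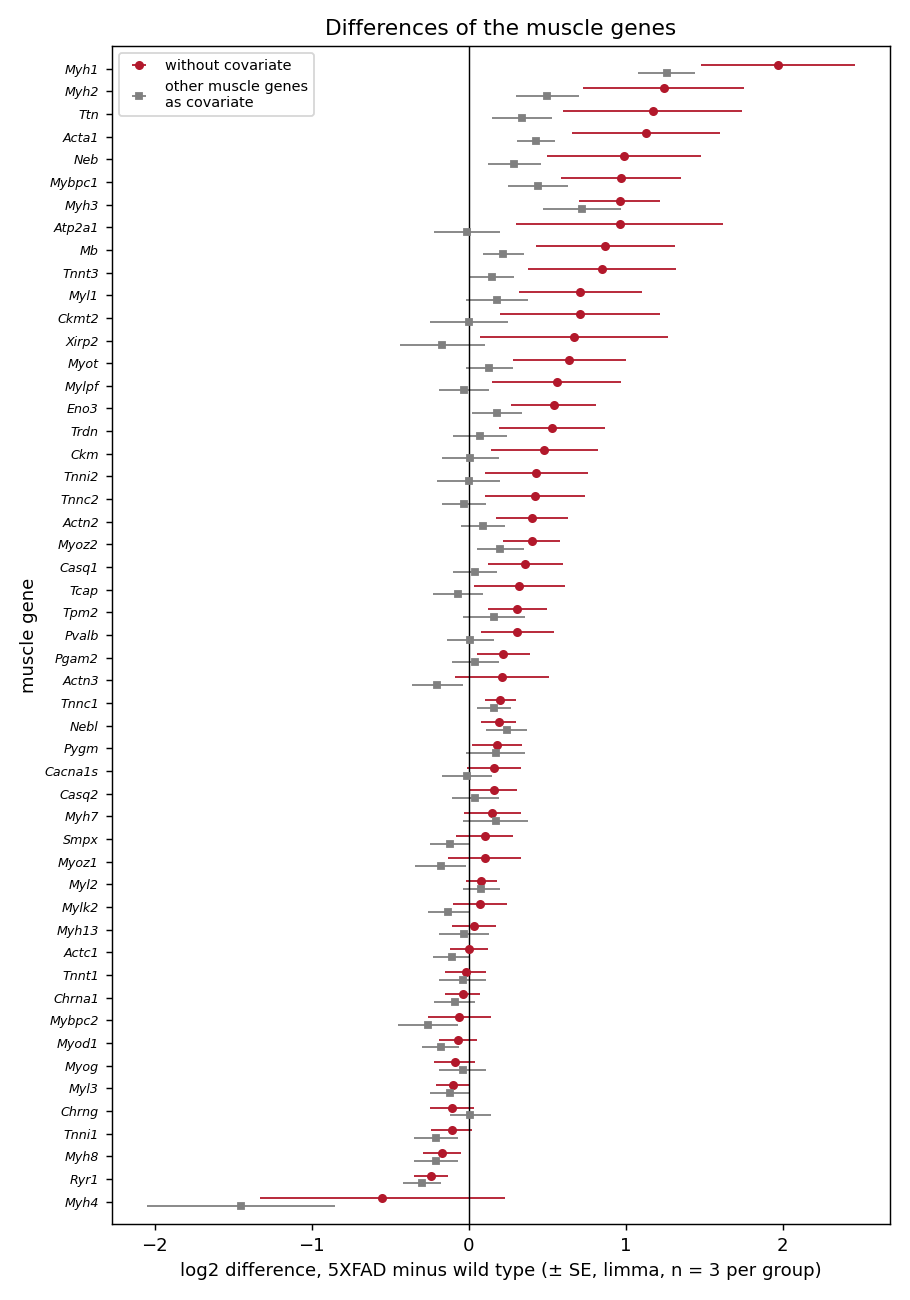
Log2 difference between 5XFAD and wild type (horizontal axis, ± SE from limma, n = 3 per group) for each of the 51 muscle genes, ordered by difference; red circles are without a covariate and grey squares with the mean of 66 other muscle genes as covariate. Grey squares crowd around 0, while Myh1 stays at 1.26 and Myh4 lies at -1.45.

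Neuromuscular junction genes (11 measured) had a median difference of 0.01 and satellite cell and regeneration genes (13) one of 0.08. In the junction list Etv5, a transcription factor of the synapse, was at -0.48 ± 0.15 and the receptor anchor Rapsn at 0.34 ± 0.20. In the satellite cell list the adhesion molecule Ncam1 was at 0.32 ± 0.11 and Chodl at 0.21 ± 0.12. Regulators of extraocular muscle (8) had a median of -0.05, with Pitx1 at -0.38 ± 0.14 and Tcf21 at 0.15 ± 0.12. Myf5 and Pax7 stand in both this list and the satellite cell list. Atrophy and denervation genes (10) had a median of 0.03. They include Chrna1 and Chrng, which are among the 51, and Trim63 and Sln, which are among the 66 other muscle genes. Fbxo32, a ubiquitin ligase of muscle atrophy that other tissues also express, had 7.95, 8.49 and 8.32 in 5XFAD and 7.82, 7.79 and 7.45 in wild type (0.56 ± 0.16; limma, Benjamini-Hochberg adjusted p = 0.53), and Ankrd1 was at 0.31 ± 0.20. Heart genes (12) had a median of -0.06, one member of which, Actc1, is also among the 51, with the troponin gene Tnni3 at 0.16 ± 0.12 and Myl7 at -0.17 ± 0.14. None of these genes passed the adjusted threshold in limma, and in all 5 lists together 2 were higher and 2 lower at an unadjusted p under 0.05 (all genes 2.89% higher and 3.39% lower). Which cells of the tissue gave the signals of these lists was not tested.

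Some marker lists of other tissues followed the array order of the fast muscle genes in part, and others did not. The smooth muscle and pericyte list was highest in 5XFAD replicate 2, with means of 8.37, 8.61 and 8.26 in 5XFAD and 8.24, 8.23 and 8.19 in wild type. It shares Des with the 66 other muscle genes. Surface epithelium had 6.63, 6.94 and 7.20 in 5XFAD and 5.83, 5.87 and 5.84 in wild type, and was lowest among the 5XFAD arrays where fast muscle was highest. The RPE list had 10.20, 10.14 and 10.26 in 5XFAD and 10.43, 10.59 and 10.48 in wild type. Macrophage genes had 9.20, 9.03 and 8.87 in 5XFAD and 8.94, 8.87 and 8.86 in wild type. Of these 18 genes, 15 were highest in 5XFAD replicate 1, the array richest in fast muscle (all genes 14.3%). In wild type replicate 3, the next richest, 0 were highest (all genes 21%), and the macrophage mean was the lowest, by a small margin. Rod photoreceptor genes, another tissue outside the dissected layers, had 6.65, 6.25 and 5.70 in 5XFAD and 6.76, 5.77 and 6.57 in wild type. In the other 5 arrays rods broadly followed fast muscle, with 5XFAD replicate 1 and wild type replicate 3 on top, while in wild type replicate 1 rods were highest and fast muscle lowest. What part the amount of muscle had in the differences of these lists was not tested.

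**Figure D4:**
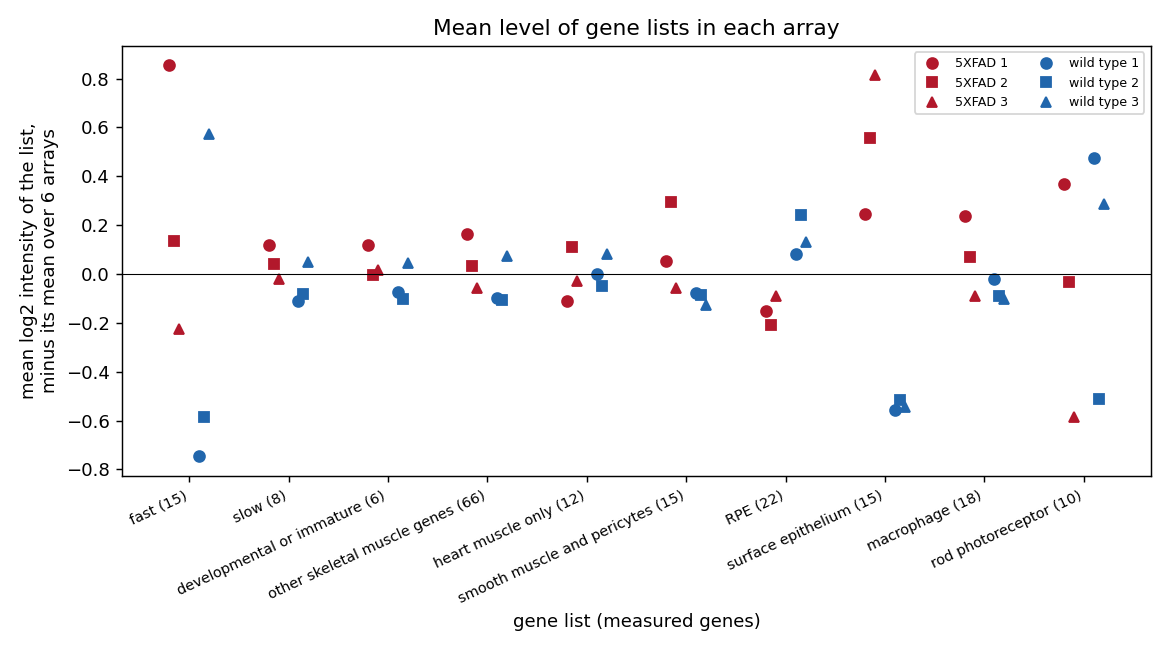
Mean log2 intensity of 10 gene lists in each array, each list shown relative to its own mean over the 6 arrays (vertical axis), with 5XFAD arrays in red on the left and wild-type arrays in blue on the right; the number of measured genes stands in brackets. Fast muscle genes spread most among the muscle lists, with 5XFAD replicate 1 and wild type replicate 3 on top, and slow and heart genes stay close to 0.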

How the data were processed

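Per the submitters' processing notes, the deposited log2 intensities come from RMA in Affymetrix Expression Console 1.1. This method subtracts background, makes the arrays' distributions equal by quantiles and summarises probes, which can hide a shift of most genes at once. Any filter or pooling by the authors is not stated. Of 33793 probe sets, 23521 had 1 symbol in the platform annotation, and the brightest per gene was kept (22180 genes). The groups of the sample titles were compared by a two-sided moderated test (limma 3.58.1, R 4.3.3), without covariates. Residual degrees of freedom were 4, and the prior added 5.23. Adjusted p-values (Benjamini-Hochberg, over the 22180 genes) were called under 0.05. The steps were tested on simulated data. Muscle genes, other lists and alternatives were chosen with earlier results of these data known. Genes given in every array were the heavy chains, the 4 regulators, members under an unadjusted p of 0.05, those of widest and narrowest range, and the widest of a role; Ttn, Neb, Mb, Cox6a2, the Ryr1 probe sets and Fbxo32 were shown after their values were seen. Windows come from RefSeq (GRCm38.p6). Lists are described without a test.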

Additional observations from a re-analysis of the deposited data

How the results depend on the processing

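Myh1, Myh2, Myh3, Mybpc1 and Acta1 had positive differences under all 14 alternatives (Myh3 under 13, being too dim for the other), and 0 of the 51 genes had an adjusted p under 0.05 under any alternative, the lowest adjusted p being 0.16 for Myh1 with the covariate (limma). The number under an unadjusted p of 0.05 was 2 with eBayes trended and robust, 14 with array weights, and ran from 2 to 23 with 1 array left out. The count over all genes was 5, and it was 8 without the dimmest 30% of genes, 8 with array medians set equal, 11 after a second quantile normalization, 9 with the trended prior, 8 with array weights, and 3 to 19 with 1 array left out. The median difference of the 51 genes ran from 0.161 to 0.478 with 1 array left out and that of the 66 other muscle genes from 0.009 to 0.091. With the 66 other muscle genes as covariate their own median was -0.012, a value fixed near nil in advance because the covariate is their own mean. In that fit differences turned sign in Myh13 (-0.03), Mylpf (-0.03), Mylk2 (-0.13), Actc1 (-0.11), Tnnc2 (-0.03), Tnni2 (-0.0014), Actn3 (-0.20), Myoz1 (-0.18), Tcap (-0.07), Xirp2 (-0.17), Smpx (-0.12), Atp2a1 (-0.01), Cacna1s (-0.01) and Chrng (0.01). Signs also turned in Mybpc2 (0.04) and Chrna1 (0.0019) with array weights, in Actc1 with equal medians (-0.0043) and in Ryr1 with the mean of its probe sets (0.14). With 1 array left out the sign turned at least once in Myh4 (-1.40 to 0.45), Myh13 (-0.06 to 0.15), Mylk2 (-0.04 to 0.26), Mybpc2 (-0.23 to 0.22), Actc1 (-0.05 to 0.10), Tnni1 (-0.22 to 0.02), Tnnt1 (-0.13 to 0.05), Actn3 (-0.10 to 0.51), Myoz1 (-0.11 to 0.36), Xirp2 (-0.04 to 1.19), Smpx (-0.07 to 0.29), Cacna1s (-0.02 to 0.35), Myod1 (-0.14 to 0.04), Chrna1 (-0.09 to 0.05), Chrng (-0.25 to 0.01). Whether the replicate numbers pair the samples is not stated. Deviations of same-numbered arrays were nearly uncorrelated (correlations of -0.06, -0.05 and 0.13), and the samples were treated as unpaired. With the replicate block 4 muscle genes had an unadjusted p under 0.05 in limma, 6 genes of all passed and the median was 0.312. Having 3 arrays a group, muscle gene signals that vary within groups, and dim signals limit these comparisons. The cause of these changes with the settings was not tested.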
